A study of Mus musculus with 10 samples.

Results

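The SOX transcription factors were followed here through 10 genes of the family, Sox4, Sox5, Sox6, Sox7, Sox9, Sox11, Sox12, Sox13, Sox17 and Sox18, which are 10 of the 30431 rows of each deposited table and were chosen by gene symbol. RNA was sequenced from the whole kidney of mice aged 21 days (postnatal day 21). The wild-type group (WT) held 4 animals, and the titles give every library a different animal number. The SM group held 3 animals of genotype Pkhd1Cre; Pkd2 F/F, in which both floxed copies of Pkd2, the polycystin-2 gene, are open to deletion by a Cre that acts mainly in the collecting duct. The DM group held 3 animals with the same Cre and floxed Pkd2 that were also miR-21null. All members were matched by name, and all 10 had an average above 1 CPM (the count scaled to library size).

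SOX proteins bind DNA through a high mobility group (HMG) box and bend it, and they are sorted into groups by the similarity of that box. SOXC factors (Sox4, Sox11, Sox12) are known from progenitor cells, including those of the developing nephron. SOXD factors (Sox5, Sox6, Sox13) have no activation domain of their own and work beside partners. The SOXE factor Sox9 acts in the tips of the branching ureteric bud and returns in injured tubule cells, and SOXF factors (Sox7, Sox17, Sox18) belong to endothelium.

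The perturbed microRNA is shown first, because the DM group differs from the SM group by its null genotype. Mature miR-21a-5p lies on the minus strand of chromosome 11 at chr11:86584120-86584141 (GRCm38.p6, RefSeq). Capitals mark its seed, bases 2 to 8.

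miR-21a-5p: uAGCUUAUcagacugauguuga

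A seed match is a stretch of messenger RNA that pairs with those bases. The 3′ UTRs of the SOX genes (GENCODE mouse release 21, GRCm38) were searched on the transcript strand for ATAAGCTA (8mer), ATAAGCT (7mer-m8) and TAAGCTA (7mer-A1), and overlapping matches were counted once under the longest. With the longest annotated 3′ UTR of each gene, 4 of the 10 members held a match. They were Sox5, Sox6, Sox7 and Sox12, and their 6 sites are printed because the DM versus SM comparison bears on them. Capitals mark the match.

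Sox5, 8mer, chr6:143833015-143833022, minus strand: agatcgaaATAAGCTAtgggttaa
Sox6, 7mer-m8, chr7:115475287-115475293, minus strand: tgctgctgATAAGCTcttgccac
Sox6, 7mer-m8, chr7:115474912-115474918, minus strand: tgctctccATAAGCTgtttaagg
Sox6, 7mer-m8, chr7:115472790-115472796, minus strand: cagttccaATAAGCTgactttac
Sox7, 7mer-A1, chr14:63950629-63950635, plus strand: acaggcatTAAGCTActctgttc
Sox12, 7mer-A1, chr2:152393775-152393781, minus strand: ccagtgtcTAAGCTAggttgttt

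Sox4, Sox9 and Sox11 held no match in 3′ UTRs of 2780, 2250 and 6957 bases. Among 12810 protein-coding genes of at least 1 CPM with an annotated 3′ UTR, 12.7% held at least 1 match, but a long UTR meets a word more often. Of the genes whose UTR was 0.8 to 1.25 times as long as that of Sox6 (6046 bases), 44.8% held a match. That share was 37.3% around the length of the Sox5 UTR, 24.1% around Sox12 and 16.2% around Sox7. A match is a description of letters, not a shown site of binding.

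**Figure D1:**
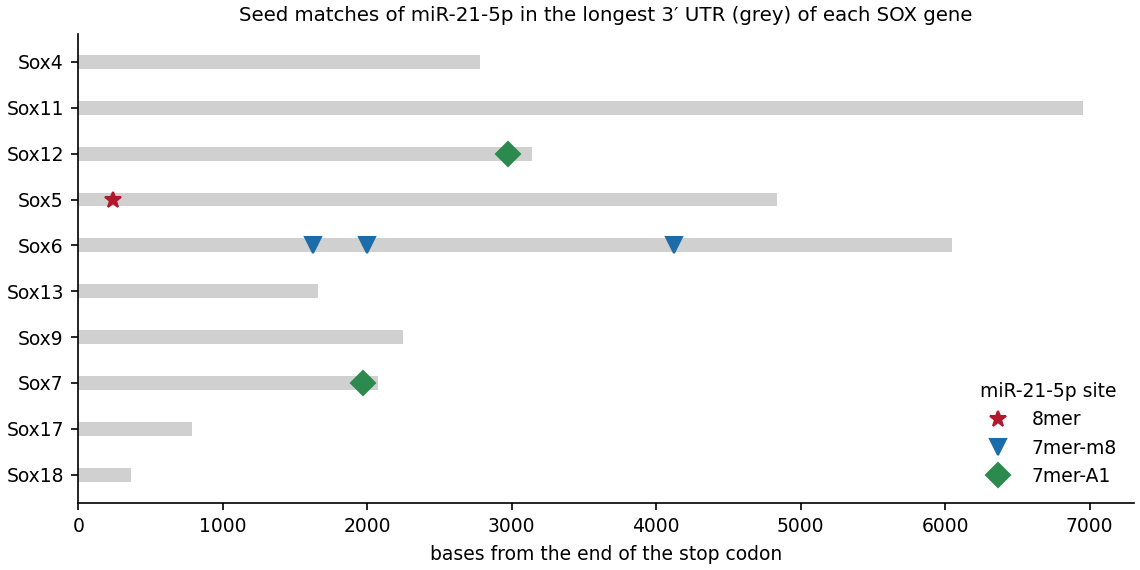
Seed matches of miR-21a-5p along the longest annotated 3′ UTR of each SOX gene, in bases from the end of the stop codon (horizontal axis); grey bars are the UTRs and symbols the 3 match types. Sox6 carries 3 matches, Sox5, Sox7 and Sox12 carry 1 each, and the bars of the other members carry none.

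The deposited tables hold 1 value per comparison and gene and none per animal, so levels are group values without a spread. They were solved from the average over all libraries with the fold changes against WT, and are approximate. Every fold change and p comes from the authors' deposited tables of edgeR's likelihood ratio test, and a gene passed where the deposited adjusted p was below 0.05. The error given is the standard error implied by that test (implied SE), and 95% intervals were computed from it. As a check of the labels, Pkd2 stood at about 239.1 CPM in WT, 179.7 in SM and 169.9 in DM, and the authors' deposited tables gave adjusted p = 0.179 for SM versus WT and 0.0838 for DM versus WT. The row covers the whole gene in whole kidney. The Mir21 row was listed at the lowest level in every comparison and checks nothing.

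Sox4, Sox9 and Sox11 rose in both Pkd2 F/F groups, with and without the miR-21null genotype, while the other 7 members did not pass the test in either comparison. In the authors' deposited table of SM versus WT 3 of 10 members were higher and 0 lower, where 7.87% of all rows passed as higher and 6.09% as lower. The counts in the authors' deposited table of DM versus WT were again 3 and 0, against 7.55% and 5.92% of rows. The median log2 fold change of the 10 members was 0.33 in SM versus WT and 0.14 in DM versus WT, beside a median of 0.00 over all rows in each. At an unadjusted p below 0.05, 5 of 10 members stood apart in SM versus WT (Sox6 and Sox12 beside these 3) and 3 of 10 in DM versus WT, where 23.4% and 23.3% of all rows did. The 2 comparisons share the 4 WT animals, so the second is no separate evidence for the first. The members all lie above 1 CPM, and among rows of that level 12.2% and 11.3% passed as higher in the 2 authors' deposited tables. With p adjusted over those rows the members called were again 3 in each comparison, beside 13.1% and 12.3% of rows. Over rows with a gene name they were 3 and 3 beside 9.36% and 8.81%, and at a threshold of 0.1 they were 3 and 3 beside 9.33% and 9.08%. At 0.01, Sox4 and Sox11 remained, 2 of 10, beside 5.58% and 5.25% of rows. A stricter reference for the likelihood ratio, the F distribution with 1 and 7 degrees of freedom, left Sox4 alone, 1 of 10, beside 1.81% and 1.24% of rows.

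**Figure D2:**
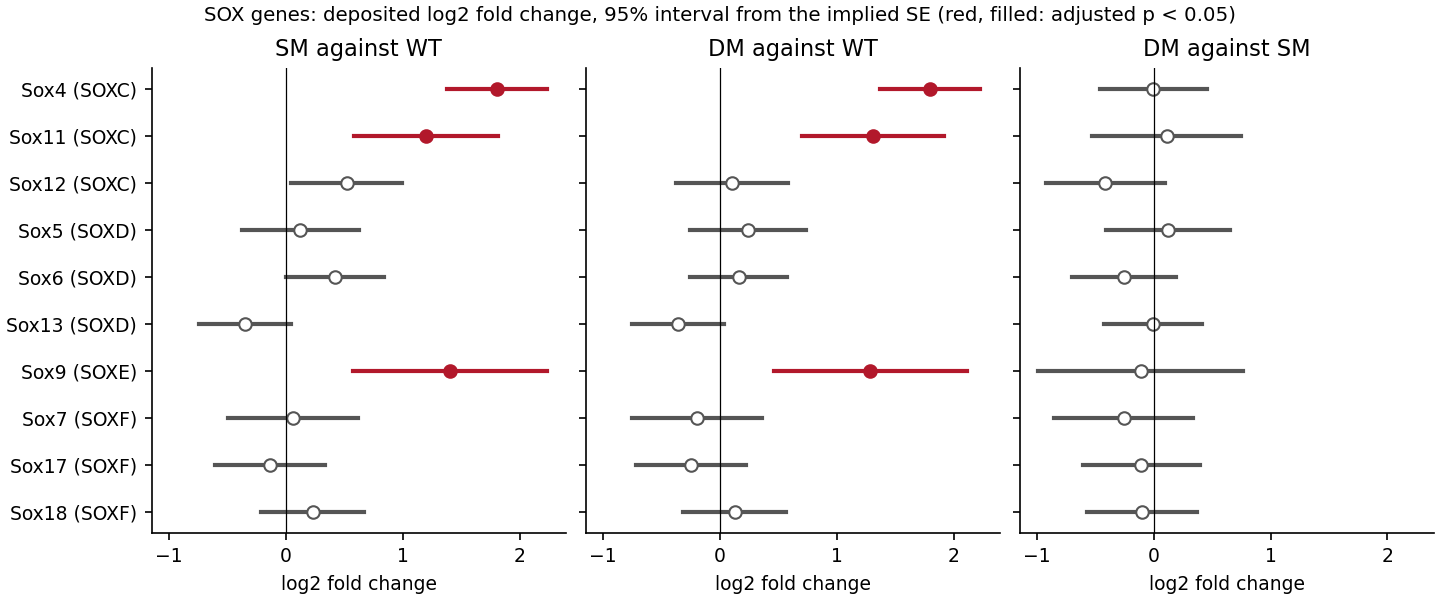
Deposited log2 fold change (horizontal axis) of each SOX gene in the 3 comparisons, with the 95% interval from the implied SE; red filled points have an adjusted p below 0.05. Sox4, Sox11 and Sox9 lie right of 0 in both comparisons against WT, from 1.20 to 1.81, and all 10 intervals of DM versus SM cross 0.

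Within the SOXC group, Sox4 and Sox11 rose and Sox12 did not pass. Sox4, a progenitor factor that also responds to TGF-beta, stood at about 37.3 CPM in WT, 130.4 in SM and 129.9 in DM. Its log2 fold change in the authors' deposited table was 1.81 for SM versus WT (implied SE 0.22, adjusted p = 3.6e-14), a 3.50-fold difference with an interval of 2.60 to 4.71. For DM versus WT the authors' deposited table gave 1.80 (implied SE 0.22, adjusted p = 5.43e-14). Ranked by p among all rows, Sox4 was 115th of 30431 in the authors' deposited table of SM versus WT and 89th in that of DM versus WT. Only 3.21% and 3% of rows above 1 CPM had a higher fold change in the 2 authors' deposited tables. Sox4 is a gene of 1 exon on chromosome 13 (28948919 to 28953713, GRCm38), and 2616 bases of it are overlapped on the opposite strand by exons of Gm26735. The library kit marks strand, but the sources used here do not give the strand setting of the counting, so reads of the pair may not have been told apart. The same holds for 1330 exon bases of Sox5 (Sox5os1) and 804 of Sox17 (Gm37587), on chromosomes 6 and 1.

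Sox11, the second SOXC member and a neuronal and nephron progenitor factor, rose from a low level. It stood at about 1.60 CPM in WT, 3.67 in SM and 3.96 in DM. In the authors' deposited tables its log2 difference was 1.20 (implied SE 0.31, adjusted p = 0.00209) for SM versus WT and 1.31 (implied SE 0.31, adjusted p = 5.57e-04) for DM versus WT. The F distribution gave adjusted p = 0.103 and 0.0906 for Sox11, so the call did not hold there. Sox12, the third SOXC member, stood at about 27.8 CPM in WT, 39.8 in SM and 29.9 in DM. Its value in the authors' deposited table was 0.52 (implied SE 0.24, adjusted p = 0.158) for SM versus WT and 0.10 (implied SE 0.24, adjusted p = 0.971) for DM versus WT. Sox12 therefore did not pass in either comparison, and the difference between SOXC members was not tested.

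Of the 10 members, 6 were matched in the table of RefSeq promoters used here, and Sox9, which also passed, was not among them. The promoters of Sox4 and Sox11 are printed because both genes passed. Each window runs from 250 bases before to 50 bases after the annotated start (GRCm38.p6), both on the minus strand. Capitals mark CCAAT, the box bound by NF-Y, on either strand, and GGAATG, the word bound by TEAD factors, which in Sox4 overlaps the first CCAAT match.

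Sox4, chr13:28953650-28953949: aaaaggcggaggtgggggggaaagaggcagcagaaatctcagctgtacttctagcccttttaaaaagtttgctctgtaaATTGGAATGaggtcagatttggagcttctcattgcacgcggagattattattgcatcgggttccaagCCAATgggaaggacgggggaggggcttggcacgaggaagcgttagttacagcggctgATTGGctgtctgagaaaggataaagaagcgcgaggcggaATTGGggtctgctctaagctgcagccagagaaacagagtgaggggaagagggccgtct
Sox11, chr12:27342669-27342968: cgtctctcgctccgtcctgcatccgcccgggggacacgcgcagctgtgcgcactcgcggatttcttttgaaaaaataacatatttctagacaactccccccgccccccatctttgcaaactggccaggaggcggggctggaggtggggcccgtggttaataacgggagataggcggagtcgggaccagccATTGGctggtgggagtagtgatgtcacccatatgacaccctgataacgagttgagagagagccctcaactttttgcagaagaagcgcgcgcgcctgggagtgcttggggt

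The Sox4 window held 4 CCAAT matches and the Sox11 window held 1. Among 32851 RefSeq promoter windows of the same length, 37.4% held at least 1 CCAAT and 1.06% held at least 4, counting both strands. GGAATG occurred once in the Sox4 window and in 14.7% of all windows. The threshold of 4 equals the count in Sox4 itself. Neither count is particular to the risen members that have a window. Sox6, which did not pass, has several windows, and that at chr7:115846091-115846390 also held 4 CCAAT matches and 1 GGAATG. The window of Sox5, which did not pass either, held 2 GGAATG matches and 0 CCAAT matches. These Sox6 and Sox5 windows lie inside the annotated spans of their genes, not at the outermost start. The words ACAAT (SOX) and TGANTCA (AP-1), present in 31% and 7.81% of windows on either strand, had no match in the Sox4 or Sox11 window.

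Sox9, the SOXE member, rose with a wider error. It stood at about 1.66 CPM in WT, 4.39 in SM and 4.06 in DM. The authors' deposited tables gave Sox9 1.40 on the log2 scale (implied SE 0.42, adjusted p = 0.0104) for SM versus WT and 1.29 (implied SE 0.42, adjusted p = 0.021) for DM versus WT. As folds these were 2.64 and 2.44, and their intervals reached down to 1.49 and 1.38. Under the F distribution the adjusted p was 0.142 and 0.174, so the call on Sox9 was lost. Sox9 lies on chromosome 11 (112782224 to 112787760, GRCm38), the chromosome of the miR-21 gene, 26.2 Mb away from it. Its log2 fold change in the authors' deposited table of DM versus SM was -0.11 (implied SE 0.45, adjusted p = 1).

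The relative of Sox9 in the SOXE group, Sox8, was not among the 10 members and was read as part of a list of 10 other SOX genes. Sox8 acts with Sox9 in the branching ureteric bud. It stood at about 0.559 CPM in WT, 2.10 in SM and 1.84 in DM. In the authors' deposited tables it differed by 1.91 on the log2 scale (implied SE 0.41, adjusted p = 9.15e-05) for SM versus WT and 1.72 (implied SE 0.40, adjusted p = 4.99e-04) for DM versus WT. By p, Sox8 ranked 1058th and 1289th, beyond the 682 and 451 rows that passed with the F distribution, so the call did not hold there. On the opposite strand 2810468N07Rik, at an average of 0.538 CPM, overlaps 329 exon bases of Sox8, and their reads may not have been told apart. Of the 10 other SOX genes, Sox8 alone passed in the authors' deposited tables, and the remaining 9 averaged below 1 CPM, with Sox1 and Sox14 at the lowest level listed.

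SOXD members did not pass in any comparison. Sox13, which binds beside TCF factors of the Wnt pathway, stood at about 67.6 CPM in WT, 53.0 in SM and 52.7 in DM. Its values in the authors' deposited tables were -0.35 (implied SE 0.20, adjusted p = 0.294) for SM versus WT and -0.36 (implied SE 0.20, adjusted p = 0.28) for DM versus WT. Sox13 was the lowest of the 10 members in each of these 2 comparisons. Sox6, a partner of Sox9 in cartilage, stood at about 52.0, 69.6 and 58.1 CPM in WT, SM and DM. The authors' deposited table gave 0.42 (implied SE 0.21, adjusted p = 0.208) for Sox6 in SM versus WT, and that of DM versus WT gave 0.16 (implied SE 0.21, adjusted p = 0.797). Sox5, the other cartilage partner, stood at about 8.40, 9.14 and 9.93 CPM. For Sox5 the authors' deposited tables gave 0.12 (implied SE 0.26) and 0.24 (implied SE 0.25) against WT, with adjusted p = 0.949 and 0.684.

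Endothelial SOXF members did not pass either. Sox18, a factor of developing vessels and lymphatics, stood at about 24.3 CPM in WT, 28.5 in SM and 26.5 in DM. Sox17, known from arterial endothelium, stood at about 24.1, 21.9 and 20.3 CPM, and Sox7 at about 7.47, 7.79 and 6.51 CPM. Across the 3 genes, log2 fold changes in the authors' deposited tables ran from -0.14 to 0.23 for SM versus WT and from -0.25 to 0.13 for DM versus WT. Their 95% intervals against WT reached at most 0.76 from 0 on the log2 scale, so larger differences lie outside them. Beside these values, 0 of 16 endothelial marker genes passed in the authors' deposited table of SM versus WT, and 4 of 16 (Kdr, Tek, Emcn and Ehd3) fell in that of DM versus WT, where 5.92% of all rows and 8.53% of rows of at least 1 CPM were lower. The list's summed level was about 1611 CPM in WT, 1505 in SM and 1227 in DM. In the authors' deposited table of DM versus SM, 0 of these 16 genes passed in either direction, where only 0.0789% of all rows did. The differing calls against WT are therefore no shown difference between DM and SM. In whole kidney, fewer cells of a type and less RNA per cell cannot be told apart.

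The miR-21null genotype on top of the Pkd2 deletion was tested directly in the authors' deposited table of DM versus SM. No member passed, 0 of 10, where 0.0789% of all rows did. At an unadjusted p below 0.05 the count from the same edgeR test was again 0 of 10, beside 3.75% of rows. With the F distribution in place of chi-square, 0 of all 30431 rows passed after adjustment. The 0 of 10 members there therefore says nothing about the members. Sox4 differed by -0.01 on the log2 scale (implied SE 0.23) in that authors' deposited table, with an interval from -0.46 to 0.45. As a ratio of DM to SM that interval spans 0.727 to 1.37. For Sox9 the interval ran from -0.99 to 0.76 and for Sox11 from -0.53 to 0.75.

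The 4 members with a seed match are read here by their own values. In the authors' deposited table of DM versus SM, Sox5, with the 8mer, stood at 0.12 (implied SE 0.27). Sox6, with 3 sites, stood at -0.26 (implied SE 0.23). Sox7 stood at -0.26 (implied SE 0.30) and Sox12 at -0.42 (implied SE 0.26), the lowest of the 10 members. All 4 intervals cross 0. The 10 members had a median of -0.11 and ranged from -0.42 to 0.12 in the authors' deposited table of DM versus SM, beside a median of 0.00 over all rows.

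**Figure D3:**
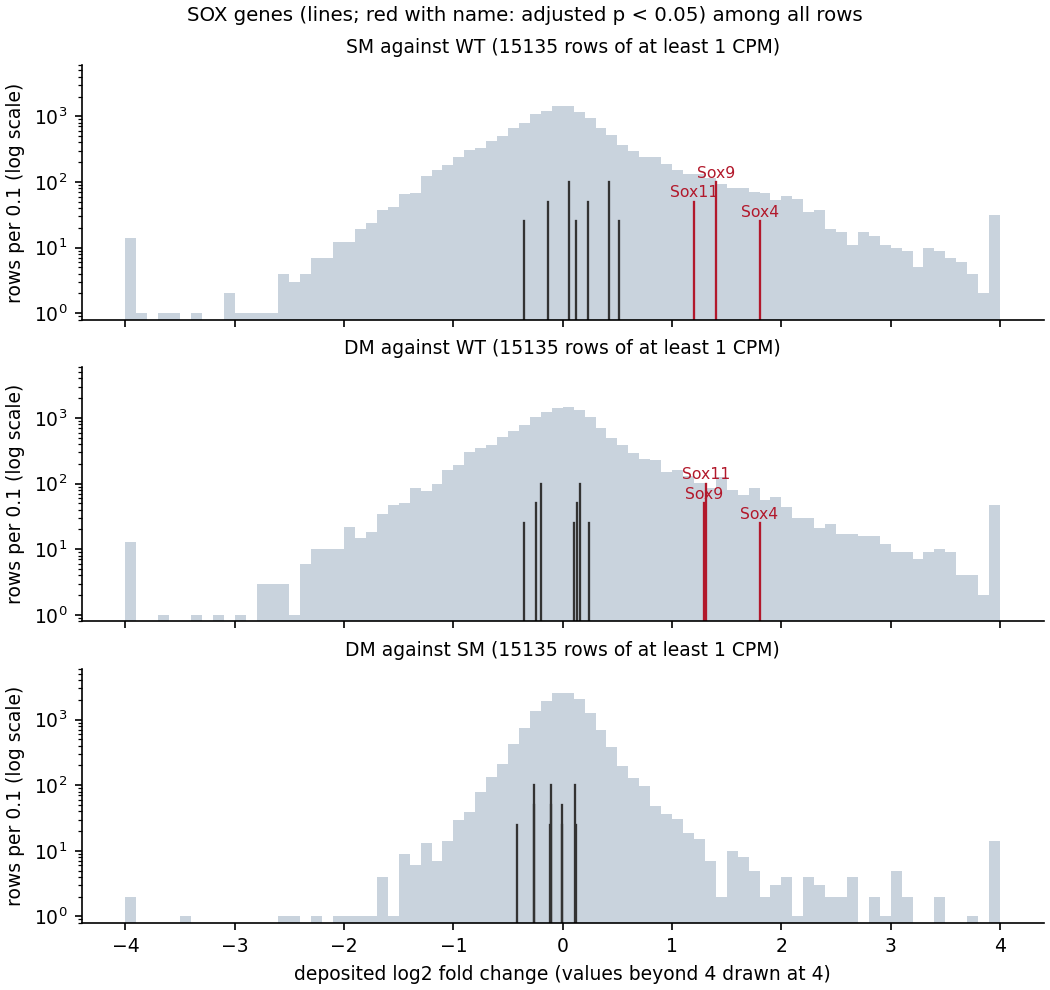
Histograms of the deposited log2 fold changes of the 15135 rows of at least 1 CPM (vertical axis: rows per 0.1, log scale), 1 panel per comparison, with the SOX genes as lines. Sox4, Sox9 and Sox11 (red, named) lie on the right flank against WT, and in DM versus SM all 10 lie between -0.42 and 0.12.

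Levels of different genes were compared only per length, as CPM per kb of annotated exon. In WT the order was Sox13 (15.7 CPM per kb), Sox18 (15.0), Sox4 (7.77), Sox12 (6.24), Sox17 (5.06), Sox6 (3.51), Sox7 (2.27), Sox5 (0.584), Sox9 (0.401) and Sox11 (0.192). With the longest coding transcript as the length instead of all annotated exons, Sox5 stood at 1.16, Sox6 at 6.001, Sox17 at 7.44 and Sox13 at 18.3 CPM per kb in WT, which put Sox17 above Sox12. Without values per animal it cannot be said which neighbours in that order differ beyond their spread. In SM and DM Sox4 came first, at 27.2 and 27.1 CPM per kb. Its share of the summed level of the 10 members was 13.7% in WT, 34.1% in SM and 36.3% in DM. SOXC genes together made up 25.1% of the sum in WT and 45.8% and 45.9% in SM and DM. The SOXF share was 39.4%, 30.8% and 30.3% and the SOXD share 34.9%, 22.1% and 22.5%. A share also moves with the sum, which was 56.68, 79.79 and 74.68 CPM per kb in WT, SM and DM. The summed SOXF level itself was 22.31, 24.55 and 22.6 CPM per kb, and that of SOXD 19.76, 17.61 and 16.83. By the longest transcript the SOXD share in WT was 39.3%, above the 38.1% of SOXF, and the SOXC share was 21.9% in WT, 41.6% in SM and 41.7% in DM. Sox9 and Sox11 stayed under 2% of the sum in every group.

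**Figure D4:**
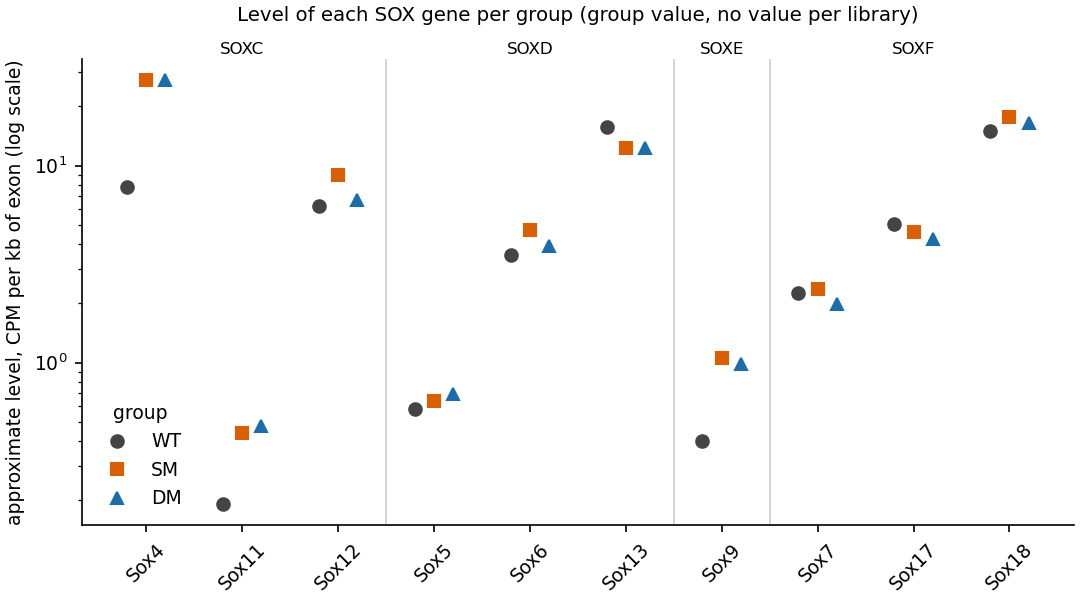
Approximate level of each SOX gene in CPM per kb of exon (vertical axis, log scale) in WT, SM and DM, by SOX group; each symbol is a group value with no error, since no value per animal is listed. Sox4 stands at 7.77 in WT and at 27.2 and 27.1 in SM and DM, and Sox18 at 15.0, 17.6 and 16.4.

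Genes that SOX factors are reported to act on were set beside them, as lists counted in the authors' deposited tables. Of all rows, 7.87% were higher and 6.09% lower in SM versus WT and 7.55% and 5.92% in DM versus WT, and of rows of at least 1 CPM 12.2% and 9.47%, then 11.3% and 8.53%. Of 4 reported SOXC targets, 3 were higher in SM versus WT (median 1.50) and 2 in DM versus WT (median 1.37). Tubb3, a neuronal tubulin, had the largest value, 4.12 in SM versus WT (authors' deposited table, implied SE 0.69), from a level of only about 0.134 CPM in WT. Of 11 measured cartilage genes regulated by Sox9 with Sox5 and Sox6, 2 were higher and 1 lower in SM versus WT in the authors' deposited table, and 2 and 2 in DM versus WT. Those higher were the collagens Col11a1 and Col9a2 in both, and those lower were Hapln1, a cartilage link protein, in both and the matrix protein Comp in DM. Counts of 1 or 2 of 11 are near the shares over all rows and are no result about the cartilage list. Of 12 genes of RET signalling, which Sox8 and Sox9 act on in the ureteric bud, 3 were higher and 0 lower in SM versus WT and 4 and 0 in DM versus WT in the authors' deposited tables. Among them in the authors' deposited tables was Myb, a transcription factor gene, at 1.55 and 1.75 (implied SE 0.49 and 0.48). Myb stood at only about 0.296 CPM in WT, 0.868 in SM and 0.995 in DM. Of 15 genes of TCF/LEF factors and Wnt readout, 5 were higher and 0 lower in each authors' deposited table against WT, among them Myc (1.84 and 1.42) and Tcf7 (1.79 and 1.57). The median of this list was 0.48 in SM versus WT and only 0.05 in DM versus WT. No gene of these 4 lists passed in DM versus SM, where only 0.0789% of all rows did, so this is no result about the lists. An average of at least 1 CPM was reached by 3 of the 4 SOXC targets and 3 of the 11 cartilage genes. It was reached by 10 of the 12 RET genes and 13 of the 15 TCF/LEF and Wnt genes.

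Markers of other cells moved in the same comparisons as Sox4, Sox9 and Sox11, and their part in the SOX values was not tested. As for the lists of reported targets, 7.87% and 7.55% of all rows were higher and 6.09% and 5.92% lower. Of rows of at least 1 CPM, 12.2% and 11.3% were higher and 9.47% and 8.53% lower. Of 14 genes of injured and progenitor-like epithelium, 13 were higher in SM and 12 in DM, each versus WT in the authors' deposited tables, among them Havcr1 and Lcn2, which injured tubules make, with summed levels of about 3356 CPM in WT, 11380 in SM and 10600 in DM. Mitosis genes were higher for 10 of 10 and 9 of 10, and macrophage genes for 9 of 9 and 8 of 9. Their sums were 68.9, 216.2 and 218.5 CPM for mitosis and 137.7, 500.1 and 507.5 CPM for macrophages in WT, SM and DM. Principal cell genes were higher for 8 and 4 of 10, fibroblast and mural cell genes for 5 and 4 of 11, and arterial and lymphatic endothelial genes for 3 and 1 of 9. The 1 of 9 in DM is near the 11.3% of rows of at least 1 CPM that were higher there, and is no result about that list. No gene of the lists in this paragraph passed in DM versus SM, where only 0.0789% of all rows did. With so few calls, this is no result about the lists. Lower in the authors' deposited tables were 8 of 10 proximal tubule genes in each comparison against WT and 5 of 9 podocyte genes in each. All these counts use the deposited adjusted p. With the F distribution only 682 and 451 rows passed in SM and DM versus WT. The best rank by p was 1163 and 1193 for mitosis genes and 1714 and 1168 for podocyte genes, so no gene of either list passed there. Proximal tubule genes, which mark kidney, summed to about 29820 CPM in WT, 12020 in SM and 13980 in DM. Hepatocyte genes were lower for 8 and 7 of 10 and higher for 1 in each, with a sum of about 312.9 CPM in WT, 175.7 in SM and 195.4 in DM. The 1 higher gene made up most of the sum in SM and DM, so the sum understates the fall of the others. The list's median log2 fold change was -5.07 in SM and -4.07 in DM, each versus WT. Alb, the albumin gene, stood at about 132.3 CPM in WT, 0.328 in SM and 1.03 in DM.

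**Figure D5:**
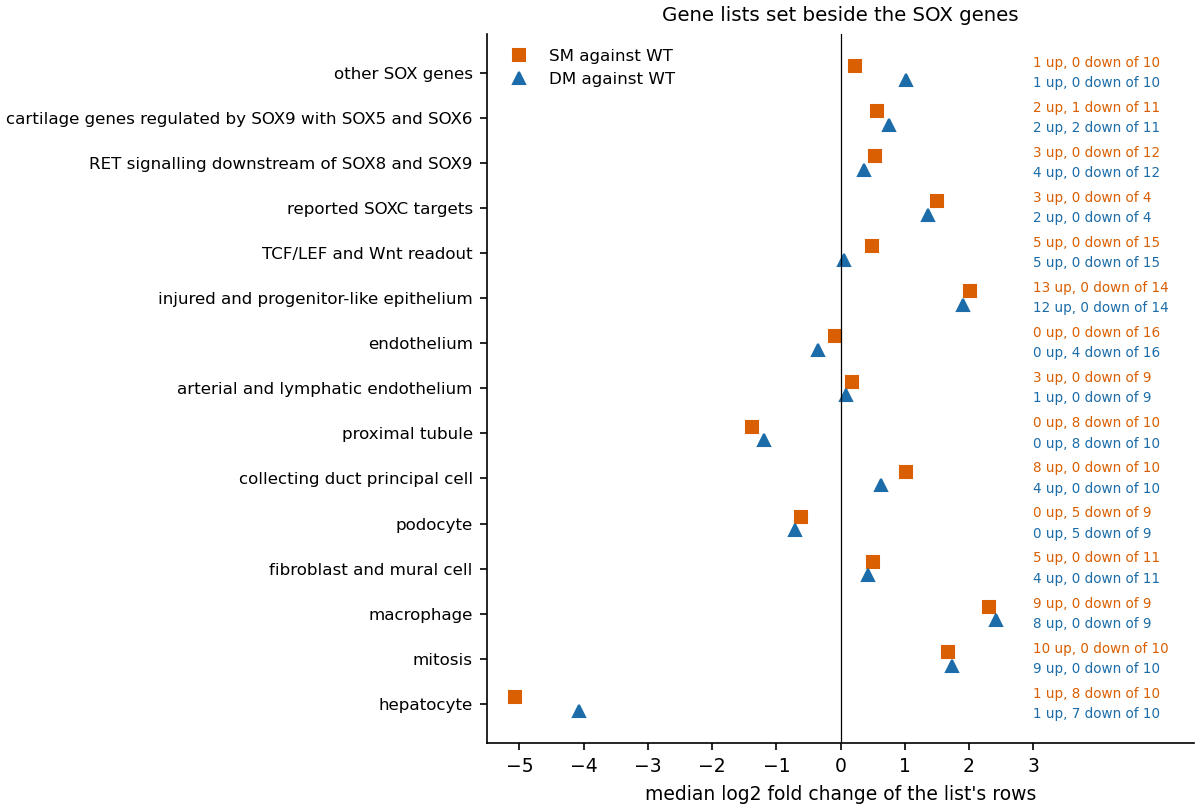
Median log2 fold change (horizontal axis) of each gene list in SM versus WT (squares) and DM versus WT (triangles), with the number of genes higher and lower at an adjusted p below 0.05 at the right. Injured epithelium (medians 2.02 and 1.91), mitosis (1.67 and 1.73) and macrophage genes (2.32 and 2.42) lie right of 0, and endothelium lies at -0.08 and -0.35.

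The genes with the pattern most like each risen member were taken as the closest 3 named genes of at least 1 CPM in the pair of deposited log2 fold changes against WT, a likeness over 3 groups only. For Sox4 they were Pstpip1, Ckap2 and Fras1, at distances of 0.0135 to 0.0158 on the log2 scale. For Sox9 they were Lgals1, Fstl1 and Tmem45a, and for Sox11 they were Bok, Dusp5 and Cenpa. Many genes lie near each of these points, with 27 genes within 0.1 of Sox4, 26 within 0.1 of Sox9 and 33 within 0.1 of Sox11.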

How the data were processed

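RNA of whole kidneys from 10 mice was sequenced, 1 library per animal, in 3 genotype groups taken from the sample titles. The submitters' processing notes name TopHat2 2.0.12, Cufflinks, featureCounts, Subread 1.4.6, edgeR 3.2.4 and the build mm10, with no role given. Per the file headers, the authors deposited for each comparison the average log2 CPM of a gene, its log2 fold change, a likelihood ratio score and its p-value, raw and adjusted. Checks on the files showed the same average in the 3 tables, and adjusted p-values equal to Benjamini-Hochberg over all 30431 rows. No value per library was analysed here, the sources used here give no library sizes, and the depth behind each value is unknown.

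The implied SE is the absolute log2 fold change over the root of the likelihood ratio. It was tested on simulated counts in which the spread was known and the same for every gene. Error from estimating the spread was therefore not covered by that test. The 95% intervals use the implied SE with a normal distribution. Group levels solve the deposited average for 4, 3 and 3 libraries of equal weight. Gene lengths and 3′ UTRs came from GENCODE mouse release 21, and miRNA and promoter sequences from RefSeq (GRCm38.p6), read with Python 3.11.15. The members and the 15 lists were chosen with earlier results of these data known. From each list at most 2 genes per direction were to be named, those with the largest change among genes that passed, and Kdr, Tek, Alb and the DM value of Myc were added after their values were seen. The values of 1 listed gene are not reported here. Alternatives were other thresholds, other sets of rows for the adjustment, the F distribution, centring, transcript length and all annotated 3′ UTRs.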

Additional observations from a re-analysis of the deposited data

How the results depend on the processing

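Directions of all 10 members held in all 3 comparisons after subtracting the median of rows of at least 1 CPM, and no call changed. Those medians were only -0.0105 and 0.0022 for SM and DM versus WT and 0.0014 for DM versus SM. Shifts so small could hardly change a call, so this says little about robustness. The members called against WT stayed at 3 with a threshold of 0.1, over rows of at least 1 CPM and over named rows, and were 2 (without Sox9) at 0.01. With the F distribution they fell to 1, Sox4, in SM against WT and in DM against WT (Sox4 adjusted p = 0.0195 and 0.0256), and this reference ignores the information on spread that edgeR shares across genes. Over all rows, the calls at 0.01 were 2775, 2596 and 7 for SM and DM versus WT and for DM versus SM, beside 4248, 4100 and 24. With the F distribution they were 682, 451 and 0, and over rows of at least 1 CPM DM against SM had 13. With the longest transcript as length, levels of 4 members (Sox5, Sox6, Sox13, Sox17) moved, in WT from 0.584 to 1.16, 3.51 to 6.001, 15.7 to 18.3 and 5.06 to 7.44 CPM per kb, and 6 kept theirs. With all annotated 3′ UTRs, 4 members again held a seed match. Leaving out single animals could not be run on tables without values per library. No paired analysis was possible because the groups share no animal numbers and the tables list no libraries. Depth is unknown, and the low averages of Sox9 and Sox11 come with the widest intervals.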
